A study of Mus musculus with 12 samples.

Results

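NADPH is the reducing currency that cells spend on fatty acid and sterol synthesis and on keeping glutathione and thioredoxin reduced. The 10 genes followed here were Nnt and 9 other genes of enzymes that make NADPH or belong to the same enzyme families, out of 30268 genes in the deposited table. All 10 were found by their mouse gene ID. Nnt was chosen by its measured FPKM, which differed between genotypes on both diets in these same libraries, so its genotype difference is given as a description, without a test. The other 9 were listed by function.

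The tissue was gonadal white fat of male C57BL/6 mice, from 4 groups of 3 libraries each. They were miR-10a knockout mice on a high-fat diet (KO_HFD), wild-type mice on that diet (WT_HFD), knockout mice on normal chow (KO_NCD) and wild-type mice on chow (WT_NCD). Feeding began at an age of 8 weeks and lasted 16 weeks in every group. Libraries are named by the group and number in the table's header. The labels do not say in which cells the deletion acts, nor which C57BL/6 substrain either genotype came from. This bears on Nnt, because C57BL/6J mice are known to carry a deletion inside that gene and C57BL/6N mice are not. Substrain and knockout cannot be told apart here.

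NNT sits in the inner mitochondrial membrane and uses the proton gradient to pass hydride from NADH to NADP, which makes NADPH in the matrix. IDH2 makes NADPH in the matrix from isocitrate. In the cytosol, G6PDX and PGD are the NADPH-making steps of the pentose phosphate pathway, and ME1 and IDH1 make NADPH from malate and isocitrate. ME1 is best known in fat for feeding fatty acid synthesis. MTHFD1 and MTHFD2 oxidize folate-bound carbon units in cytosol and mitochondria, and MTHFD2 can use NAD as well as NADP. ME2 and ME3 are the mitochondrial malic enzymes, and ME2 uses mainly NAD.

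Values are FPKM, fragment counts scaled by transcript length and by library size, as the submitters computed them, so levels of different genes are compared per length. Tests used limma's moderated test on log2(FPKM + 1) over all 12 libraries, with Benjamini-Hochberg (BH) adjustment over the 14340 genes that reached 1 FPKM in at least 3 libraries. A gene is said to have risen or fallen where the adjusted p was under 0.05. The added 1 FPKM makes the log2 change of a low gene smaller than the log2 ratio of its FPKM. Of the 10 genes, 9 entered the tests and Me3 did not.

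The sequence of the deleted microRNA shows which letters a target would carry. The mature strand below is from RefSeq on build GRCm38.p6 (chr11:96317186-96317208, plus strand), with its seed, bases 2 to 8, in capitals.
mmu-miR-10a-5p: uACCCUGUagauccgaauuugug
The letters that pair with this seed are ACAGGGT. In the annotated 3′ untranslated regions of the 10 genes, 1 gene, Mthfd2, held them, at chr6:83306245-83306265 on the minus strand of GRCm38, shown here with the match in capitals.
Mthfd2 site: aaagcagcACAGGGTttcaac
The same letters were found in 1807 of 12509 tested genes with such a region, or 14.45%. A match describes the letters and does not show that the microRNA binds. The region annotated for Nnt did not hold them.

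Promoters are shown for 3 genes that changed with diet in both genotypes, G6pdx and Pgd upward and Idh2 downward. Each is the 250 bases before an annotated transcript start, from RefSeq on GRCm38.p6, read on the gene's own strand. The first listed start was used for genes with several. That of Idh2 lies inside the gene's annotated span, which reaches further upstream on its strand. They lie at chrX:74428881-74429130, chr4:149166706-149166955 and chr7:80115351-80115600, all on the minus strand. Capitals mark 3 motifs searched on both strands. These were the antioxidant response element core TGACNNNGC, to which NRF2 binds, the CCAAT box CCAAT and the GC box GGGCGG.
G6pdx: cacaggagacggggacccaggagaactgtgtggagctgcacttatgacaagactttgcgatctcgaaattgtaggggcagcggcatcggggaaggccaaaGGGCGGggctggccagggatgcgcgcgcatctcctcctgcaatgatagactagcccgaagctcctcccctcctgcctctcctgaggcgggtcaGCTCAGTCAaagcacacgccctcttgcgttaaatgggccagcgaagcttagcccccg
Pgd: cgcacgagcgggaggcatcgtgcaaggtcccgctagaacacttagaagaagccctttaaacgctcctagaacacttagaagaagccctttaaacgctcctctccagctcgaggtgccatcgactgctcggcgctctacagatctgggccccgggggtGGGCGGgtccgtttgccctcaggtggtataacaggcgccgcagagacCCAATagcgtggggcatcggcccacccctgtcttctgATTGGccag
Idh2: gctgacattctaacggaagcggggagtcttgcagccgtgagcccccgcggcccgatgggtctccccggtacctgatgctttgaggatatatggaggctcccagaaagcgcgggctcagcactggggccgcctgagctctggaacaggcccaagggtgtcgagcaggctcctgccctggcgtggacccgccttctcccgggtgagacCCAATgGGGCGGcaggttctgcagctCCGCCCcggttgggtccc
G6pdx held the antioxidant core 57 bases before its start, on the reverse strand, and a GC box at 150. Pgd held CCAAT boxes at 46 and 9 and a GC box at 93. Idh2 held a CCAAT box at 44 and GC boxes at 38 and 18. Over 32851 promoter windows of the same 250 bases, the antioxidant core was found in 10.16%, CCAAT in 33.85% and the GC box in 32.74%. Among the 8 of the 10 genes with a window, taken at 1 window each, 1, 5 and 6 held them, in that order. The shares count every window, several for some genes, so they are not a matched background for these counts. The E-box CACGTG was in 6.02% of windows and in none of these 8. The ATF4 element TGATGNAA was in 3.45% of windows and in 1 of the 8, Me3. Windows for Nnt and Me2 were not used here.

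Nnt (chr13:119335527-119409257 on GRCm38.p6) was higher in knockout than in wild-type fat on both diets and lower on the high-fat diet than on chow in both genotypes. On the high-fat diet it read 10.1, 10.5 and 9.85 FPKM in KO_HFD libraries, against 4.25, 3.97 and 4.15 FPKM in WT_HFD libraries. On chow it read 17.1, 16.7 and 16.5 FPKM in KO_NCD libraries, against 7.10, 6.83 and 6.51 FPKM in WT_NCD libraries. No 2 of the 4 groups overlapped, and they ran in the order KO_NCD, KO_HFD, WT_NCD, WT_HFD from high to low. The lowest knockout library on the high-fat diet stood above the highest wild-type library on chow.

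The ratio of group mean FPKM, KO over WT, was 2.47 on the high-fat diet and 2.46 on chow. Over single pairs of libraries this ratio ran between 2.32 and 2.65 on the high-fat diet and between 2.33 and 2.63 on chow. These numbers carry no test, since the gene was chosen for them.

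The diet difference of Nnt was not used to choose the gene and could be tested. In wild-type fat Nnt averaged 4.12 ± 0.137 FPKM on the high-fat diet and 6.81 ± 0.292 FPKM on chow (SD, n = 3 each). The log2 fold change was -0.61 (SE 0.053, adjusted p = 8.33e-06 by limma with BH). In knockout fat it averaged 10.2 ± 0.351 FPKM on the high-fat diet and 16.8 ± 0.308 FPKM on chow (SD, n = 3 each). There the log2 fold change was -0.67 (SE 0.053, adjusted p = 2e-06 by limma with BH). As a share of the chow level, the mean FPKM changed by -39.5% in wild-type fat and -39.4% in knockout fat.

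**Figure D1:**
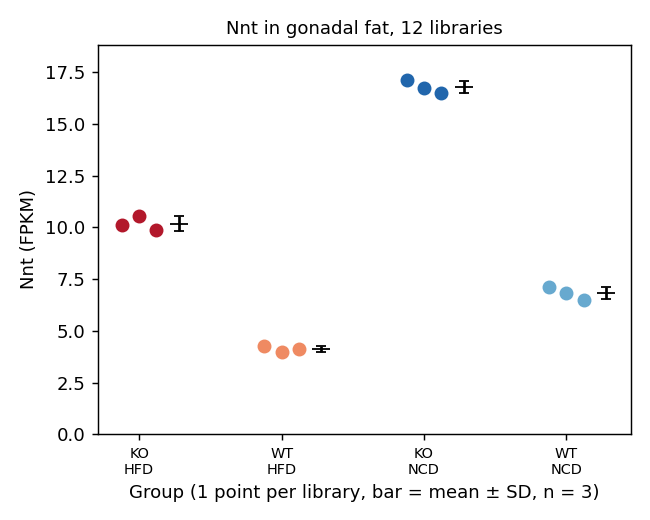
Nnt in each of the 12 libraries, in FPKM on a linear axis from 0, with 1 point per library and a bar for the group mean ± SD (n = 3). The 3 KO_HFD libraries lie between 9.85 and 10.5 FPKM and the 3 WT_HFD libraries between 3.97 and 4.25; on chow, KO_NCD lies between 16.5 and 17.1 and WT_NCD between 6.51 and 7.10.

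Within each library, Nnt was a mid-ranking transcript in wild-type fat and a higher one in knockout fat. Among the 14340 tested genes it stood at percentile 59.0 to 60.7 in KO_HFD libraries and 34.0 to 36.5 in WT_HFD libraries. On chow it stood at percentile 75.5 to 75.9 in KO_NCD libraries and 48.8 to 51.6 in WT_NCD libraries. A rank within a library does not depend on how that library was scaled.

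The genes around Nnt on chromosome 13 were looked up as well. The 5 nearest tested genes on each side were taken by position alone. With limma, 0 of these 10 passed for knockout over wild type on the high-fat diet and 0 on chow, and with 0.802% and 0.0488% of all tested genes passing, a count of 0 says little about the region. Their log2 fold changes ran between -0.43 and 0.30 on the high-fat diet and between -0.44 and 0.24 on chow. The reference annotation lists 4 protein-coding models of Nnt, and the longest, in 17 exons, has 835 codons. That assembly is of C57BL/6J, and a table of 1 value per gene cannot show which exons were read.

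Among the cytosolic enzymes, G6pdx and Pgd rose on the high-fat diet in both genotypes. G6pdx (chrX:74409483-74428880), the entry step of the pentose phosphate pathway, read 123, 104 and 107 FPKM in KO_HFD libraries, against 82.4, 83.2 and 89.8 FPKM in KO_NCD libraries. In wild-type fat it read 135, 118 and 134 FPKM in WT_HFD libraries, against 103, 86.1 and 88.9 FPKM in WT_NCD libraries. In each genotype all high-fat libraries lay above all chow libraries. The log2 fold change was 0.38 in knockout fat (SE 0.092, adjusted p = 0.00422 by limma with BH) and 0.47 in wild-type fat (SE 0.092, adjusted p = 0.00166). The knockout call was lost after median centring (adjusted p = 0.0585). A retroposed copy of the gene, G6pd2, was listed at no more than 0.0387 FPKM in any library.

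Pgd (chr4:149149991-149166705), the next NADPH-making step, behaved likewise. It read 188, 180.2 and 194 FPKM in KO_HFD libraries, against 145, 131 and 148 FPKM in KO_NCD libraries. In wild-type fat it read 202, 191 and 192 FPKM in WT_HFD libraries, against 178, 151 and 137 FPKM in WT_NCD libraries. Neither pair of groups overlapped. Its log2 fold change was 0.41 in knockout fat (SE 0.092, adjusted p = 0.00296 by limma with BH) and 0.34 in wild-type fat (SE 0.092, adjusted p = 0.0112). Across the 12 libraries G6pdx and Pgd had a Pearson correlation of 0.914 on the log scale, which carries the diet groups within it and is given as a description.

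Me1 and Idh1 were abundant and did not pass the diet test. Me1 (chr9:86581363-86695914) read 152, 164 and 125 FPKM in KO_HFD libraries, against 249.8, 224 and 189 FPKM in WT_HFD libraries. On chow it read 161, 165 and 199 FPKM in KO_NCD libraries, against 260.2, 239.9 and 172 FPKM in WT_NCD libraries. The genotypes did not overlap on the high-fat diet and did on chow. Knockout over wild type, its log2 fold change was -0.58 on the high-fat diet (95% interval -0.95 to -0.21, adjusted p = 0.0892 by limma with BH) and -0.34 on chow (95% interval -0.71 to 0.034, adjusted p = 0.967). Idh1 averaged 127 ± 1.32 FPKM in KO_HFD, 140.4 ± 3.71 in WT_HFD, 128 ± 20.1 in KO_NCD and 132 ± 17.4 in WT_NCD (SD, n = 3 each). On the high-fat diet the genotypes did not overlap, yet the log2 fold change of -0.14 did not pass (adjusted p = 0.484 by limma with BH). Its log2 fold change with diet was 0.0076 in knockout fat and 0.092 in wild-type fat.

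In the mitochondrion, Idh2 (chr7:80094845-80118608) fell on the high-fat diet in both genotypes. It read 45.4, 52.2 and 34.99 FPKM in KO_HFD libraries, against 76.8, 69.4 and 65.0 FPKM in KO_NCD libraries. In wild-type fat it read 51.0, 55.4 and 40.0 FPKM in WT_HFD libraries, against 65.8, 70.9 and 67.4 FPKM in WT_NCD libraries. High-fat and chow libraries did not overlap in either genotype. The log2 fold change was -0.67 in knockout fat (SE 0.15, adjusted p = 0.00221 by limma with BH) and -0.48 in wild-type fat (SE 0.15, adjusted p = 0.0182). The wild-type call was lost without WT_HFD 4 (adjusted p = 0.0762) or without WT_NCD 2 (adjusted p = 0.0573). The libraries with the lowest Idh2, KO_HFD 8 and WT_HFD 4, also had the lowest summed adipocyte markers of their groups, 8599 and 14240 FPKM, and the part of this in the result was not tested.

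Of the malic enzymes in mitochondria, Me2 lay between 3.89 and 5.21 FPKM over all libraries and passed no test. Me3 lay between 0.190 and 0.434 FPKM, under the level needed for testing.

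Mthfd2 (chr6:83305704-83326011) rose on the high-fat diet in both genotypes, with a call near the threshold in wild-type fat. It read 7.07, 6.78 and 8.13 FPKM in KO_HFD libraries, against 4.15, 5.19 and 3.39 FPKM in KO_NCD libraries. In wild-type fat it read 5.22, 5.56 and 8.24 FPKM in WT_HFD libraries, against 3.51, 4.51 and 4.83 FPKM in WT_NCD libraries. The groups did not overlap in either genotype, though WT_HFD 4 stood well above the other WT_HFD libraries. The log2 fold change was 0.68 in knockout fat (SE 0.17, adjusted p = 0.00505 by limma with BH) and 0.46 in wild-type fat (SE 0.17, adjusted p = 0.0421). The wild-type call was close to the threshold and was lost in 12 of the alternatives. Leaving out WT_HFD 4, WT_NCD 1, WT_NCD 2, KO_HFD 3, KO_HFD 5 or KO_NCD 2 gave adjusted p-values of 0.163, 0.136, 0.0686, 0.0567, 0.0519 and 0.05, the last rounded. The log2 fold change was 0.28 without WT_HFD 4, 0.35 without WT_NCD 1 and 0.49 without WT_NCD 2, and 0.46 without any of the 3 knockout libraries.

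Mthfd1 (chr12:76254406-76319820), whose product carries several enzyme activities of cytosolic folate metabolism, fell in wild-type fat. It read 8.86, 9.48 and 9.49 FPKM in WT_HFD libraries, against 11.8, 12.3 and 10.97 FPKM in WT_NCD libraries, with no overlap. The log2 fold change was -0.30 (SE 0.064, adjusted p = 0.00249 by limma with BH). In knockout fat it read 9.65, 10.2 and 9.19 FPKM in KO_HFD libraries, against 11.1, 10.2 and 10.2 FPKM in KO_NCD libraries. There the groups overlapped and the log2 fold change of -0.11 did not pass (adjusted p = 0.167). It did pass when libraries were rescaled, with adjusted p-values of 0.0029 after quantile normalization, 0.0024 after median centring and 0.012 after rescaling without mitochondrially encoded genes. The difference between the diet effects was itself not past the threshold (0.20 on the log2 scale, adjusted p = 0.275).

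**Figure D2:**
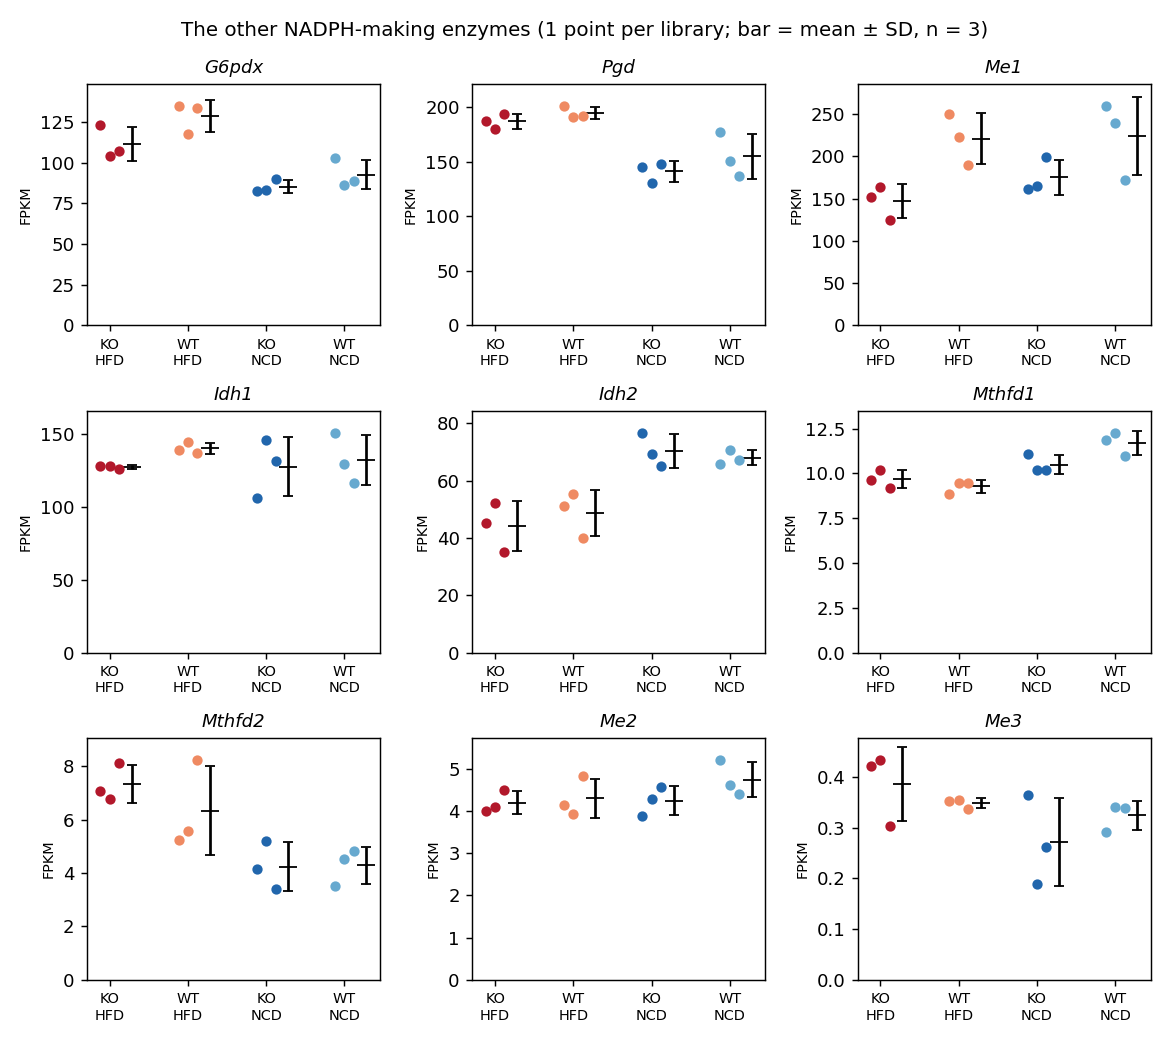
The 9 genes other than Nnt, in FPKM on linear axes from 0, with 1 panel per gene, 1 point per library and a bar for the group mean ± SD (n = 3). G6pdx, Pgd and Mthfd2 lie higher on the high-fat diet, Idh2 lower, and Me1 lies lower in KO_HFD than in WT_HFD.

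Counted together, 5 of the 9 tested genes passed for diet in knockout fat, G6pdx, Pgd and Mthfd2 upward and Nnt and Idh2 downward. Of all tested genes, 60.9% passed in that comparison, 34.6% upward and 26.2% downward. In wild-type fat 6 of 9 passed, the same 5 and Mthfd1 downward, against 50.8% of all tested genes, 25.4% upward and 25.3% downward. The members' shares were thus near the background, and their median log2 fold changes were -0.013 in knockout and -0.0073 in wild-type fat, against 0.039 and -0.027 over all genes. Without the 3 chow libraries that carried ciliated-epithelium transcripts, the members' knockout calls were kept. The wild-type calls of Nnt and Mthfd1 were kept too, and those of G6pdx, Pgd, Idh2 and Mthfd2 were lost. Fewer genes then passed over all tested genes as well, so the loss is not particular to these members. In wild-type fat Pgd then stood at 0.13 on the log2 scale, G6pdx at 0.32, Idh2 at -0.44 and Mthfd2 at 0.68. This omission leaves 1 WT_NCD library, which is then assumed to vary like the other groups. The ciliated markers summed to 64.2 FPKM in KO_NCD 2, 43.7 in WT_NCD 2 and 31.7 in WT_NCD 4, against 2.31 to 5.16 in the other 9 libraries.

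For genotype, 0 of the 8 genes other than Nnt passed limma's test on either diet. At an unadjusted p under 0.05 there were 2 on the high-fat diet, Me1 and G6pdx, and 1 on chow, Mthfd1. Of all tested genes 24.3% had such a p on the high-fat diet and 5.1% on chow, so the members' counts lay near the background. After adjustment, of all tested genes 0.802% passed on the high-fat diet and 0.0488% on chow. For the interaction, the diet effect in knockout minus that in wild-type fat, 0 of 8 passed, with 0.272% of all genes passing. There 0 of 8 had an unadjusted p under 0.05, against 18.5% of all tested genes, and for 8 genes this count says little. Intervals were wide for some genes. On the high-fat diet the 95% interval of Mthfd2, knockout over wild type, ran between -0.17 and 0.57 on the log2 scale.

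**Figure D3:**
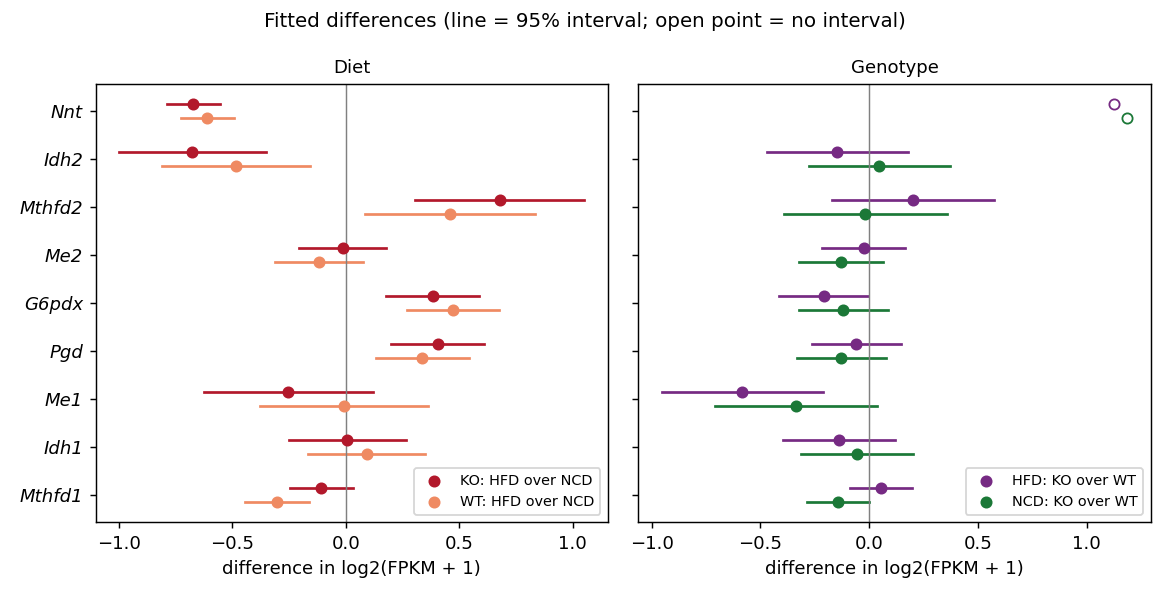
Log2 fold changes of the 9 tested genes on the log2(FPKM + 1) scale with 95% intervals from limma, for the diet and the genotype comparisons. With diet the intervals of G6pdx, Pgd and Mthfd2 lie above 0 and those of Nnt and Idh2 below 0 in both genotypes; for genotype the values of Nnt, 1.12 on the high-fat diet and 1.19 on chow, are shown as a description.

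Summed by compartment, cytosolic transcripts outweighed mitochondrial ones in every group. The 5 cytosolic genes, G6pdx, Pgd, Idh1, Me1 and Mthfd1, summed to 583 ± 19.7 FPKM in KO_HFD, 694 ± 36.8 in WT_HFD, 539.8 ± 36.7 in KO_NCD and 616 ± 89.3 in WT_NCD (SD, n = 3 each). The 5 mitochondrial genes, Nnt, Idh2, Me2, Me3 and Mthfd2, summed to 66.3 ± 8.16 FPKM in KO_HFD, 63.9 ± 5.94 in WT_HFD, 95.9 ± 6.30 in KO_NCD and 84.2 ± 2.72 in WT_NCD. Since this sum includes Nnt, chosen for its genotype difference, genotype differences in the sum and in shares of it carry that choice. Nnt made up 15.5% ± 1.44 of the mitochondrial sum in KO_HFD and 6.49% ± 0.736 in WT_HFD. On chow it made up 17.5% ± 0.837 in KO_NCD and 8.10% ± 0.492 in WT_NCD. Idh2 was the largest mitochondrial part in every group, at 66.3% in KO_HFD, 76.0% in WT_HFD, 73.3% in KO_NCD and 80.8% in WT_NCD. Its own mean was 44.2 FPKM in KO_HFD, 48.8 in WT_HFD, 70.4 in KO_NCD and 68.0 in WT_NCD.

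**Figure D4:**
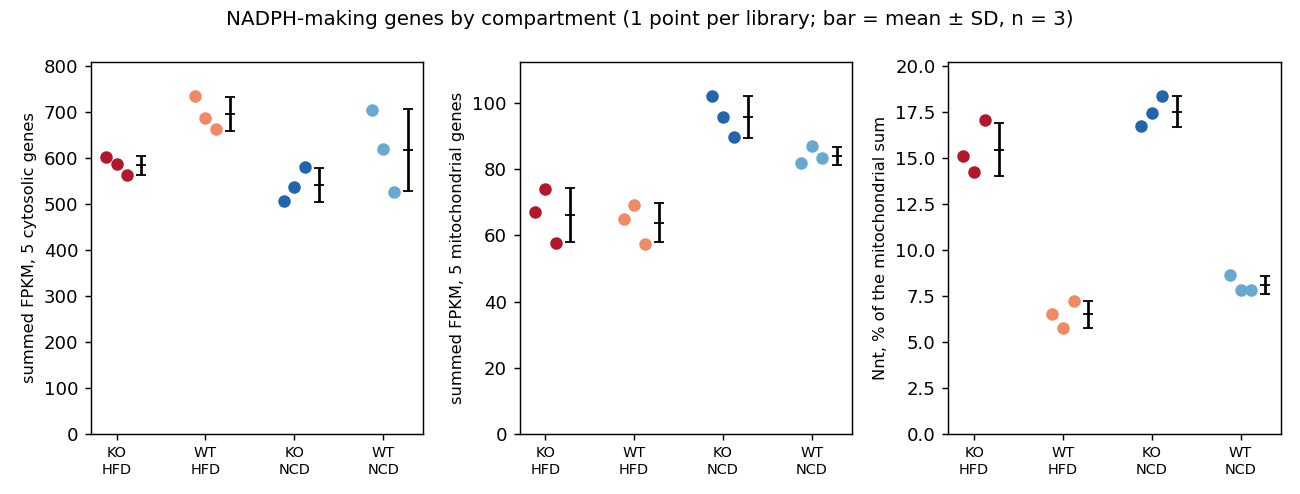
Sums of FPKM over the 5 cytosolic and the 5 mitochondrial genes and the share of Nnt in the mitochondrial sum, with 1 point per library and a bar for the group mean ± SD (n = 3). Mitochondrial sums average 66.3 and 63.9 FPKM in KO_HFD and WT_HFD, against 95.9 and 84.2 in KO_NCD and WT_NCD, and the Nnt share is 15.5% and 6.49%, against 17.5% and 8.10%. The mitochondrial sum includes Nnt, which was chosen for its genotype difference.

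Whole fat pads hold many cell types, and the marker transcripts of some of these moved with diet. All 14 macrophage markers rose on the high-fat diet in both genotypes, and their sum ran between 4612 and 6724 FPKM in KO_HFD, 3035 and 4300 in WT_HFD, 446 and 578 in KO_NCD, and 542 and 700.4 in WT_NCD. Of 12 adipocyte markers 12 fell in knockout fat and 8 in wild-type fat, and their sum ran between 8599 and 14160 FPKM in KO_HFD, 14240 and 18330 in WT_HFD, 30390 and 40970 in KO_NCD, and 32130 and 32700 in WT_NCD. Fewer cells of a type and less RNA per cell cannot be told apart in such samples. On the high-fat diet neither sum overlapped between genotypes. Knockout over wild type, the median log2 fold change there was -0.58 for the adipocyte markers and 0.58 for the macrophage markers. The adipocyte value is close to that of Me1 in the same comparison. The part of these shifts in the diet and genotype results was not tested.

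The wider NADPH network was described by 9 lists with 97 tested genes. On the high-fat diet 29 rose and 43 fell in knockout fat, and 28 rose and 38 fell in wild-type fat. The downward share was 44.3% in knockout and 39.2% in wild-type fat, against 26.2% and 25.3% of all tested genes, and the upward share 29.9% and 28.9%, against 34.6% and 25.4%. After median centring the downward share in knockout fat was 50.5%, against 36.2% of all tested genes. For genotype 0 of 97 passed limma's test on either diet. At an unadjusted p under 0.05 there were 43 of 97 on the high-fat diet and 4 of 97 on chow. Over all tested genes there were 3480 and 731 of 14340, or 24.3% and 5.1%. The share in the lists thus lay above the background on the high-fat diet and near it on chow. Every gene said below to have risen or fallen passed limma's test with BH adjustment, and where a pair of log2 values is given the knockout value stands first.

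Of 9 other pentose phosphate genes tested, 1 rose and 4 fell in knockout fat, and 2 rose and 3 fell in wild-type fat. Tkt, Taldo1 and H6pd fell in both genotypes, where G6pdx and Pgd rose. Tkt, the transketolase that recycles pentoses, averaged 99.9 ± 2.34 FPKM in KO_HFD and 194 ± 13.4 in KO_NCD, and 106 ± 1.82 in WT_HFD and 219 ± 30.2 in WT_NCD (SD, n = 3 each). Its log2 fold change was -0.95 in knockout and -1.03 in wild-type fat (adjusted p = 9.8e-06 and 1.12e-05 by limma with BH). H6pd, which makes NADPH inside the endoplasmic reticulum, fell by 1.03 and 0.84 on the log2 scale. Prps1, which turns ribose phosphate into the precursor of nucleotides, rose by 1.19 in knockout and 1.97 in wild-type fat.

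Of 12 other folate genes tested, 5 rose and 5 fell in knockout fat, and 3 rose and 3 fell in wild-type fat. Sfxn1, the mitochondrial serine carrier, averaged 18.4 ± 1.60 FPKM in KO_HFD and 85.5 ± 15.7 in KO_NCD, and 22.7 ± 3.27 in WT_HFD and 86.8 ± 5.23 in WT_NCD. Its log2 fold change was -2.15 in knockout and -1.90 in wild-type fat (adjusted p = 3.9e-07 and 2.25e-06 by limma with BH). The serine carrier fell where Mthfd2, which works downstream of serine, rose. Tyms, which makes thymidylate, rose by 0.81 in knockout and 0.46 in wild-type fat.

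Of 17 genes for citrate, malate and pyruvate exchange, 3 rose and 8 fell in knockout fat, and 1 rose and 7 fell in wild-type fat. Mpc1, a subunit of the mitochondrial pyruvate carrier, fell by 1.08 and 0.59 on the log2 scale, and Mdh1, the cytosolic malate dehydrogenase, by 0.83 and 0.52. Slc25a13, an aspartate-glutamate carrier, rose by 2.29 and 1.40. Of the 3 subunits of the NAD-dependent isocitrate dehydrogenase 2 fell in each genotype, Idh3b by 0.57 and 0.40 and Idh3g by 0.70 and 0.43. Of 9 genes for NAD kinases and salvage, 0 rose and 6 fell in knockout fat, and 1 rose and 6 fell in wild-type fat. Among them Nadk2, the mitochondrial NAD kinase that supplies NADP, fell by 0.57 and 0.63.

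On the spending side, the lists split. Of 17 reductases and thiol enzymes, 5 rose and 10 fell in knockout fat, and 3 rose and 9 fell in wild-type fat. Por, which hands NADPH electrons to cytochromes P450, averaged 72.0 ± 5.28 FPKM in KO_HFD and 189 ± 28.4 in KO_NCD, and 71.5 ± 8.46 in WT_HFD and 184 ± 9.85 in WT_NCD. Of 10 lipid synthesis genes, 4 rose and 3 fell in knockout fat, and 6 rose and 4 fell in wild-type fat. Dhcr7, a late enzyme of cholesterol synthesis, rose by 1.84 in knockout and 2.03 in wild-type fat. Scd1, the fatty acid desaturase, fell in both genotypes. It averaged 1802 ± 523 FPKM in KO_HFD and 6832 ± 1230 in KO_NCD, and 3260 ± 873 in WT_HFD and 6793 ± 27.5 in WT_NCD.

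The phagocyte NADPH oxidase burns NADPH to make superoxide. All 6 of its listed genes rose in both genotypes, with a median log2 fold change of 2.84 in knockout and 1.97 in wild-type fat. The list also held Nox4, an oxidase of other cell types, which rose by 1.21 and 0.66 and is named here after its values were seen. Cybb, the catalytic subunit of the phagocyte oxidase, averaged 73.0 ± 17.1 FPKM in KO_HFD and 4.09 ± 0.679 in KO_NCD. In wild-type fat Cybb averaged 43.6 ± 8.20 in WT_HFD and 5.38 ± 1.53 in WT_NCD. The macrophage markers named above rose in the same comparisons, and their part in this was not tested. Of 13 regulators reported for NADPH genes, 4 rose and 5 fell in knockout fat, and 5 rose and 4 fell in wild-type fat. With 1 library left out, the wild-type counts ran between 1 and 5 risen and between 3 and 5 fallen. Bach1, a repressor at antioxidant response elements, rose by 1.13 and 0.63, and Mlxipl, the carbohydrate-responsive activator of lipogenic genes, fell by 1.57 and 0.95.

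Without the 3 chow libraries with ciliated transcripts, the wild-type counts became smaller for most lists, as they did over all tested genes. The smaller counts are thus not particular to these lists. With 1 WT_NCD library left, counts per list are not printed. No gene of the oxidase list lost its call. Among the list genes named above, the wild-type calls of Idh3b, Idh3g, Tyms, Mlxipl and Scd1 were lost. Their log2 fold changes were then -0.37, -0.40, 0.39, -0.90 and -1.10, in that order.

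**Figure D5:**
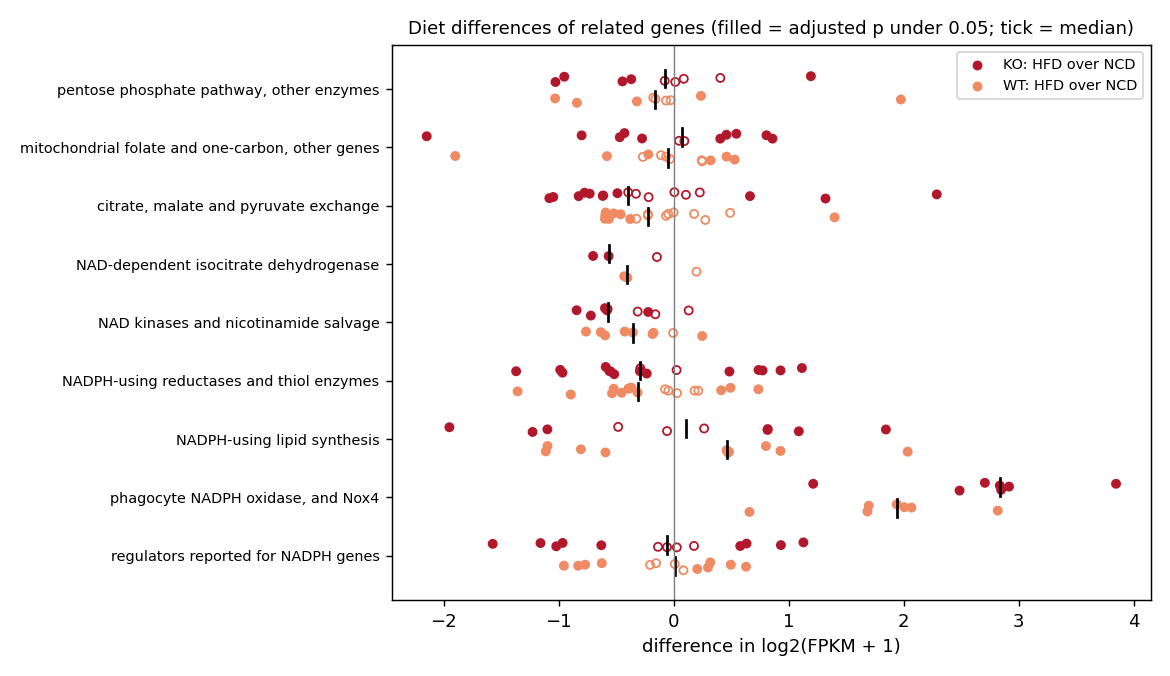
Log2 fold changes with diet, high-fat over chow, of the tested genes in the 9 lists, with 1 point per gene and genotype and a tick at each list's median; filled points passed limma's test at an adjusted p of 0.05. The 7 genes of the oxidase list, 6 phagocyte oxidase genes and Nox4, lie to the right of 0 in both genotypes, and NAD kinase and salvage genes lie mostly to the left.

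Genes whose log values followed each member most closely over the 12 libraries were listed, as a description with no test, since all share the same libraries and diet groups. For Nnt the closest were AI450353, AA465934 and Tlcd2, with Pearson correlations of 0.954, 0.95 and 0.94. Opposite to it ran Slfn8 at -0.984 and Tmem254a at -0.943. With the mean of each diet removed, what was left of Nnt was mostly the genotype difference it was chosen for. Genes that follow it then are others that differed between genotypes here. Entpd4 at 0.992 and Entpd4b at 0.991 came first, ahead of AA465934 at 0.987 and Xaf1 at 0.98, and Slfn8 stayed lowest at -0.985. AI450353, AA465934, Tlcd2, Xaf1 and Slfn8 lie on chromosome 11, as Mir10a does, and the spans of AI450353 and AA465934 overlap. The bearing of this position was not tested. Entpd4 and Entpd4b, and Tmem254a and its copy, are near-identical duplicates among which reads may have been split, so their values are uncertain. For the other members, the closest gene was Acss2, the cytosolic acetyl-CoA synthetase, for Me1 at 0.97, Hdhd5 for Idh2 at 0.981, Aen for G6pdx at 0.979, Ube2v1 for Pgd at 0.972, and Arf5 for Mthfd2 at 0.969. Between members, Idh2 ran opposite to Mthfd2 (-0.861) and to Pgd (-0.79).

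Across the series the libraries differed in composition. Mitochondrially encoded genes held 7.52% to 9.83% of all FPKM in KO_HFD, 9.24% to 13.1% in WT_HFD, 15.2% to 17.5% in KO_NCD and 14.6% to 15.5% in WT_NCD. Mir10a itself was listed between 0.0221 and 0.425 FPKM in libraries of both genotypes, and since polyadenylated RNA was sequenced this checks nothing about the genotype labels. Only FPKM are in the table, without counts, which leaves library depth unknown and counting error without an estimate.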

How the data were processed

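The authors deposited FPKM per gene for 12 libraries, per the file headers. RNA was taken up in Trizol and sequenced after TruSeq Stranded mRNA LT preparation, per the labels' protocols. HISAT2 2.1.0, StringTie 1.3.4d, Trimmomatic, bcl2fastq 2.20.0, DESeq2 and build mm10 appear in the submitters' processing notes, without the role of each. FPKM is relative within a library, so a rise of abundant transcripts lowers all others. Columns were tied to groups by their headers, and the replicates are biological per the series' design text.

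A count test could not be used without counts, so limma 3.58.1 in R 4.3.3 was fitted with a mean for each of the 4 groups, leaving 8 residual degrees of freedom, with empirical Bayes moderation along a mean-variance trend and BH adjustment per comparison. Symbols came from the GRCm38.p6 annotation, which matched 30196 gene IDs and left 72 unmatched. The members, gene lists and tests were chosen with earlier results of these data known. From each list, up to 4 genes per diet comparison with the lowest p were named; a few genes this rule picked are not reported here.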

Additional observations from a re-analysis of the deposited data

How the results depend on the processing

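The alternatives were another pseudocount, another filter on low values, other scalings, a fit on the compared groups alone, omission of the 3 chow libraries with ciliated transcripts, and omission of each library in turn. A replicate block by header number was added after seeing the data. Of 928 log2 fold changes of members recomputed in this way, 871 kept their direction and side of the threshold, 18 lost a call, 3 gained one and 36 changed sign. None of those that changed sign was called, and the cause was not tested.

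For knockout over wild type on chow, the Mthfd2 log2 value became 0.055 under quantile normalization, 0.051 under median centring, 0.0019 after rescaling without mitochondrially encoded genes and 0.21 without the ciliated libraries, and that of Idh1 became 0.013 under median centring. With 1 library left out these ran between -0.14 and 0.10 for Mthfd2, -0.16 and 0.072 for Idh1, and -0.017 and 0.10 for Idh2. On the high-fat diet they ran between -0.077 and 0.044 for Me2 and -0.28 and 0.0095 for Idh2. For diet in wild-type fat, Idh1 became -0.011 under quantile normalization and -0.10 without the ciliated libraries, and Me1 ran between -0.19 and 0.11 with 1 library left out. For diet in knockout fat, Idh1 became -0.067 under quantile normalization, -0.14 under median centring, -0.12 after rescaling and -0.12 without the ciliated libraries. With 1 library left out it ran between -0.12 and 0.11, and Me2 between -0.063 and 0.029. For the difference of diet effects, median centring gave -0.0065 for Me2 and -0.042 for Pgd, rescaling gave -0.0023 for Pgd, and omission of the ciliated libraries gave 0.043 for G6pdx and -0.0071 for Mthfd2. With 1 library left out, Pgd ran between -0.033 and 0.15 and Idh1 between -0.21 and 0.016.

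Over all genes, the 7 called for genotype on chow became 14 with no filter, 11 with the compared groups alone, 4 without the ciliated libraries and 6 to 15 with 1 library left out. The 115 on the high-fat diet became 24, with the compared groups alone, 25, without the ciliated libraries, and 17 to 953. The 7279 for diet in wild-type fat became 3878 without the ciliated libraries, where 2 members passed. The 39 for the difference of diet effects became 24 with no filter, 4 under quantile normalization, 13 under median centring, 16 after rescaling, 17 without the ciliated libraries and 0 to 168 with 1 library left out. Median centring moved the median log2 change of all genes with diet in knockout fat to -0.11, against 0.039 as reported, and split the calls into 3824 higher and 5188 lower, against 4967 and 3763 (3989 and 4814 under quantile normalization, 4191 and 4782 after rescaling). For genotype on the high-fat diet it gave 68 higher and 46 lower, against 86 and 29. The header numbers are not those of the sample titles, and nothing in the labels says that a number is shared by paired mice. Wild-type libraries of both diets carry numbers 1, 2 and 4, and their deviations from the group means correlated at 0.31, 0.364 and 0.0095 across genes. Deviations within a group of 3 depend on each other, so these values cannot show whether the numbers mark pairs. The main fit did not use the numbers as pairs. A replicate block on these numbers gave 7106 genes and 6 members called for diet in wild-type fat. On chow the genotypes share numbers 2 and 4 (correlations of 0.245 and -0.463), and the block on these 4 libraries, with limma, called 0 genes and 0 members and gave a Pgd log2 value of 0.030. At an unadjusted p under 0.05 it had 604 genes. The other comparisons share fewer than 2 numbers. With 3 libraries a group and no counts, moderate differences of low genes such as Me2 and Mthfd2 may be missed.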
